A study of Pichia kudriavzevii with 6 samples.

Results

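In the yeast Pichia kudriavzevii, 73 of 5464 measured genes (1.34%) formed a set that was 4- to 16-fold higher when succinic acid was the only carbon source than in either medium with glucose, and nearly level between the media with glucose. They were chosen by that pattern. Counts were scaled to counts per 1000000 (CPM) with each library's total, averaged over the libraries of a medium, and 1 was added. A member had ratios of at least 4 and below 16 for succinic acid alone against both other media, a ratio of the mixed medium to glucose alone above 0.667 and below 1.5, and a value of at least 20 on succinic acid alone. Of 180 genes inside the first window, 108 were also inside the second, 75 also inside the third, and 73 also above the level.

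All cells were of strain CY902 with URA3 deleted, so the cells in every medium carried the same deletion. URA3 encodes the orotidine phosphate decarboxylase of uracil synthesis and is a common selection marker. After a preculture of 24 hours, cells were washed and moved for 3 hours at 30 °C and pH 5.0 into synthetic medium with 2% glucose (SoleG), 2% glucose plus 2% succinic acid (GS) or 2% succinic acid without glucose (SoleS). Each medium had 2 libraries, and the labels do not say whether these came from separate cultures, so spreads and standard errors may be technical. No medium lacked both carbon sources, so loss of glucose and use of succinic acid cannot be told apart in SoleS.

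Yeasts prefer glucose, and in the well-studied Saccharomyces cerevisiae its presence represses genes for the use of other carbon sources. When glucose is gone, the kinase Snf1 relieves repression by Mig1 and allows activators such as Cat8 and Adr1 to act. Succinic acid enters the tricarboxylic acid cycle directly, and growth on it requires uptake across the plasma membrane, respiration and gluconeogenesis, the synthesis of sugars from cycle intermediates. The gene IDs are not paired with names here: 0 of 5464 matched the RefSeq gene table of this species (assembly ASM305444v1). The deletion of URA3 could not be checked by name either. No role is given to any member, and 6 are named by ID under a fixed rule. Others singled out below, by their coding length, were picked after their values were seen.

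Library totals ranged from 6024768 to 6959188 counts, and each member had at least 107 counts in every SoleS library. Only 1 member, the shortest, was below 10 counts in a glucose library, in SoleG as well as in GS, and no member had a count of 0. CPM values are shares of a library, so a larger share and more RNA of a gene per cell cannot be told apart in these bulk samples. The members together held 0.867% and 0.887% of the counts in the SoleG libraries, 0.824% and 0.836% in GS, against 5.67% and 5.47% in SoleS. The means were 0.877% ± 0.014, 0.830% ± 0.008 and 5.57% ± 0.14 (SD, n = 2). The SoleS libraries thus lay far above all 4 glucose libraries, which is what the rule selected for.

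Inside the windows the members were spread unevenly, with more of them near the lower limit. The SoleS/SoleG ratio had a median of 6.28 and quartiles of 4.88 and 9.62, and the SoleS/GS ratio a median of 6.17 and quartiles of 5.27 and 10.3. Both ratios were below 8 in 46 members and at least 8 in 23. Over all 5464 genes the median ratios were 0.910 for SoleS/SoleG and 1 for SoleS/GS. Across the members both ratios rose together (Spearman rho 0.84, n = 73), but they share the SoleS libraries and this describes the choice rather than a relation. In the edgeR fit with 1 model over all genes, all 73 members passed the low-count filter and all 73 were called higher in SoleS than in SoleG (adjusted p below 0.05), where 38.2% of 5280 genes tested were called higher. In SoleS against GS all 73 were again called higher, where 40.0% of all genes were. The rule used these contrasts, so nothing is read from either count.

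**Figure D1:**
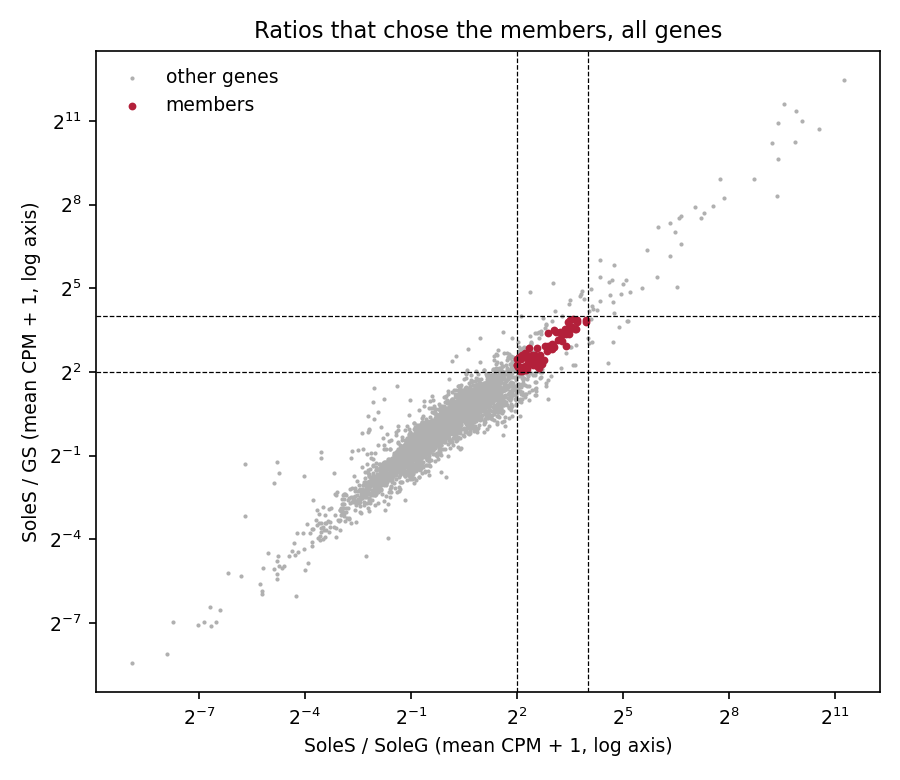
SoleS/SoleG ratio (x axis) against SoleS/GS ratio (y axis) of mean CPM + 1 for each of 5464 genes, on log axes. The 73 members (red) lie between the dashed lines at 4 and 16 on both axes, and other genes between the lines failed the GS/SoleG window or the level.

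The limits of the windows cut through a continuous range of values at the lower end. For SoleS/SoleG the members nearest 4 had ratios of 4.01, and the nearest genes outside that met every other condition had 3.98, 3.97 and 3.95. The highest member ratio was 15.6, and the next gene outside was at 17.0. For SoleS/GS the lowest member was at 4.09 with 3.92 just outside, and the highest was at 15.0. The GS/SoleG ratio ran from 0.697 to 1.40 in members, with the nearest genes outside at 0.662 and 1.51. That window removed 25 genes at or below its lower limit and 8 at or above its upper one that met every other condition. The lowest SoleS value of a member was 21.3, and the only genes removed by the level alone, 2 in number, had 15.7 and 10.01.

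Levels are compared between genes per coding length, as FPKM (CPM per kb of coding length, recomputed with each library's own total). The members covered a wide range of expression, from 17.1 to 4537 FPKM in SoleS, a 265-fold span. Their median was 28.7 FPKM with glucose alone, 27.7 in the mixed medium and 226 in SoleS, while the median of all genes was 45.7, 40.6 and 40.2. By rank among all genes the median member stood at percentile 36.6 in SoleG, 38.6 in GS and 86.8 in SoleS. Only 30 of 73 were above the middle rank in SoleG, and the same number in GS. In SoleS 31 were above the 90th percentile, against 6 in SoleG and 7 in GS.

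**Figure D2:**
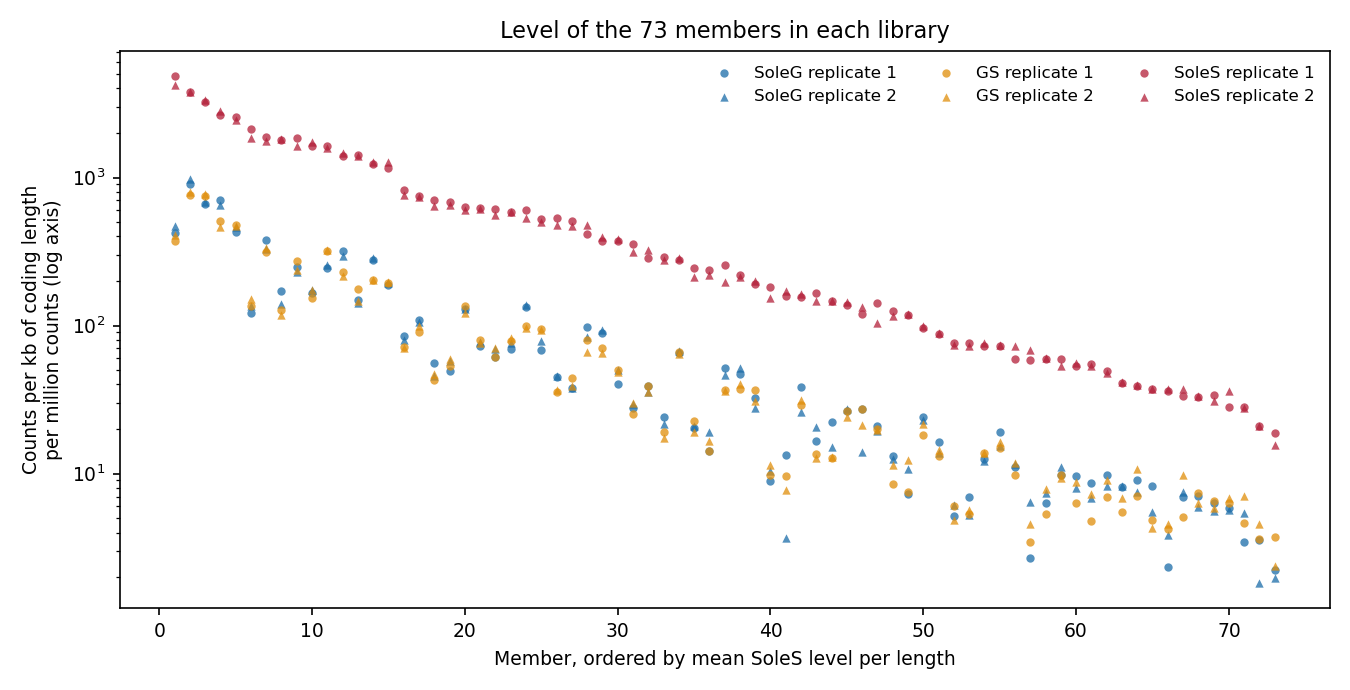
FPKM recomputed with own totals (y axis, log) in each of the 6 libraries for the 73 members, ordered by mean SoleS level (x axis). SoleS points (red) lie above the SoleG (blue) and GS (orange) points of the same member throughout, and the mean SoleS level runs from 4537 down to 17.1.

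The most abundant class had 15 members at 1000 FPKM or more in SoleS. It held 73.3% of all member counts in SoleS, with a median of 282 FPKM in SoleG and 1811 in SoleS. PK1119, of 1572 bases, had 662 and 736 CPM in SoleG, 589 and 641 in GS, against 7616 and 6648 in SoleS. Both SoleS libraries exceeded every glucose library, and this was the highest member per length in SoleS at 4537 ± 436 FPKM (SD, n = 2). Its log2 fold change in edgeR was 3.50 ± 0.09 (SE) against SoleG and 3.54 ± 0.09 against GS. It alone held 12.8% of the member counts in SoleS.

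PK0142, of 1371 bases, was next per length in SoleS, at 3775 ± 29 FPKM (SD, n = 2). It had 1232 and 1349 CPM in SoleG, 1049 and 1098 in GS, against 5204 and 5148 in SoleS. It was already abundant with glucose, at percentile 96.7 in SoleG, and stood at percentile 99.4 in SoleS. Its ratio of 4.01 to SoleG was almost at the lower limit, with a log2 fold change of 2.15 ± 0.08 (SE), and 2.28 ± 0.08 against GS. Per length, both SoleS libraries of PK1119 were above both of PK0142.

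Some abundant members had far lower levels with glucose. A member of 1566 bases had 191 and 212 CPM in SoleG, 211 and 237 in GS, against 3307 and 2917 in SoleS. Its ratios of 15.4 and 13.8 were among the steepest of the set. A short member of 363 bases had 62.3 and 51.0 CPM in SoleG, 46.3 and 42.7 in GS, against 655 and 660 in SoleS. In both cases the groups with and without glucose were widely separated. A member of 1938 bases rose less steeply, with 1282 and 1325 CPM in SoleG, 1454 and 1509 in GS, against 6301 and 6439 in SoleS. Its ratios were only 4.88 and 4.30.

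The middle class of 34 members, at 100 to 1000 FPKM in SoleS, held 23.4% of the member counts. Their median SoleS/SoleG ratio was 8.04, with 6.28 in the class above and 5.52 in the class below, and 17 of the 34 reached 8 or more. The classes are cut on the SoleS level, which is also the numerator of the ratio, and the added 1 lowers the ratios of scarce genes most, so no order is read from these medians. A member of 924 bases had 8.26 and 9.63 CPM in SoleG, 9.04 and 10.5 in GS, against 167 and 142 in SoleS, and its SoleS/SoleG ratio of 15.6 was the highest in the set. A member of 1695 bases had 41.0 and 36.9 CPM in SoleG, 32.6 and 29.5 in GS, against 491 and 469 in SoleS, and its SoleS/GS ratio of 15.0 was the highest of that kind. Across all members the ratio to SoleG was only weakly related to the SoleS level per length (Spearman rho 0.16, n = 73, a description over genes that share libraries).

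The remaining 24 members stayed below 100 FPKM in SoleS and held 3.34% of the member counts. Their median was 7.04 FPKM in SoleG, 6.60 in GS and 51.3 in SoleS, and 4 of the 24 reached a SoleS/SoleG ratio of 8. The longest member, of 4452 bases, belonged here: it had 56.2 and 54.0 CPM in SoleG, 61.7 and 61.1 in GS, against 324 and 337 in SoleS. The lowest member per length, of 1674 bases, had 3.76 and 3.31 CPM in SoleG, 6.23 and 3.99 in GS, against 31.3 and 26.1 in SoleS. It reached percentile 24.7 of all genes in SoleS.

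The added 1 pulled a few scarce members into the window and kept other genes out of the set. With 0.1 added instead, the rule chose 79 genes, 70 of them members. Without any addition 2 members had a ratio of at least 16 to SoleG, the highest being 19.3. That was the shortest member, of 123 bases, with 11 and 3 counts in SoleG, 8 and 6 in GS, against 136 and 127 in SoleS. The ratio of its counts to SoleG, scaled by library size, had a 95% exact (Clopper-Pearson) counting interval of 11.3 to 35.7. Over all members, 58 had a counting interval against SoleG that lay wholly inside 4 to 16, and 60 against GS. These intervals cover counting error only.

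The spread between replicates was read beside that of all 5280 genes tested. The members' coefficient of variation over the libraries of a medium had a median of 3.58% for SoleS, 7.47% for SoleG and 7.07% for GS. Over all genes tested the medians were 5.43%, 5.75% and 5.09%, without such a gap between media. The coefficient exceeded 10% for 9 members (12.3%) on succinic acid alone, where 24.7% of all genes tested did. It did so for 29 (39.7%) on glucose and 26 (35.6%) in the mixed medium, where 27.9% and 24.2% of all genes did. Members were chosen for higher values in SoleS than with glucose, so these shares do not rank the media. The largest SoleS spread, 22.4%, was in a member of 171 bases with 24.4 and 17.8 CPM. In all 73 members both SoleS libraries were above every glucose library, and in 63 the lower SoleS library was at least 4 times the highest glucose library. Of all genes, 38.0% had both SoleS libraries above both SoleG libraries and 44.3% above both GS libraries, and the rule again fixed the members' count.

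Choosing in 1 replicate and reading the other gave values the choice had not used. With the replicate 1 libraries alone the rule chose 75 genes, of which 60 are members. In the replicate 2 libraries these 75 had SoleS/SoleG ratios of 2.97 to 15.2 with a median of 5.99, and 67 stayed inside 4 to 16. Their SoleS/GS ratios were 2.34 to 15.4 with a median of 5.94. With the replicate 2 libraries alone the rule chose 82 genes, 65 of them members. In replicate 1 these had SoleS/SoleG ratios of 2.80 to 18.2 with a median of 5.998, and SoleS/GS ratios of 3.15 to 18.8 with a median of 6.98. Every gene so chosen was thus higher in SoleS in the libraries not used, by at least 2.34-fold. The labels do not say whether these libraries came from separate cultures, so this may be a technical repeat only. In replicate 2, the SoleS/GS ratio was inside its window for 62 of the 75 genes and the GS/SoleG ratio for 65. In replicate 1, the SoleS/SoleG, SoleS/GS and GS/SoleG ratios were inside for 68, 74 and 63 of the 82. Of the 73 members, chosen on the mean of both, 52 met the rule in each replicate separately and 21 in 1 replicate alone.

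**Figure D3:**
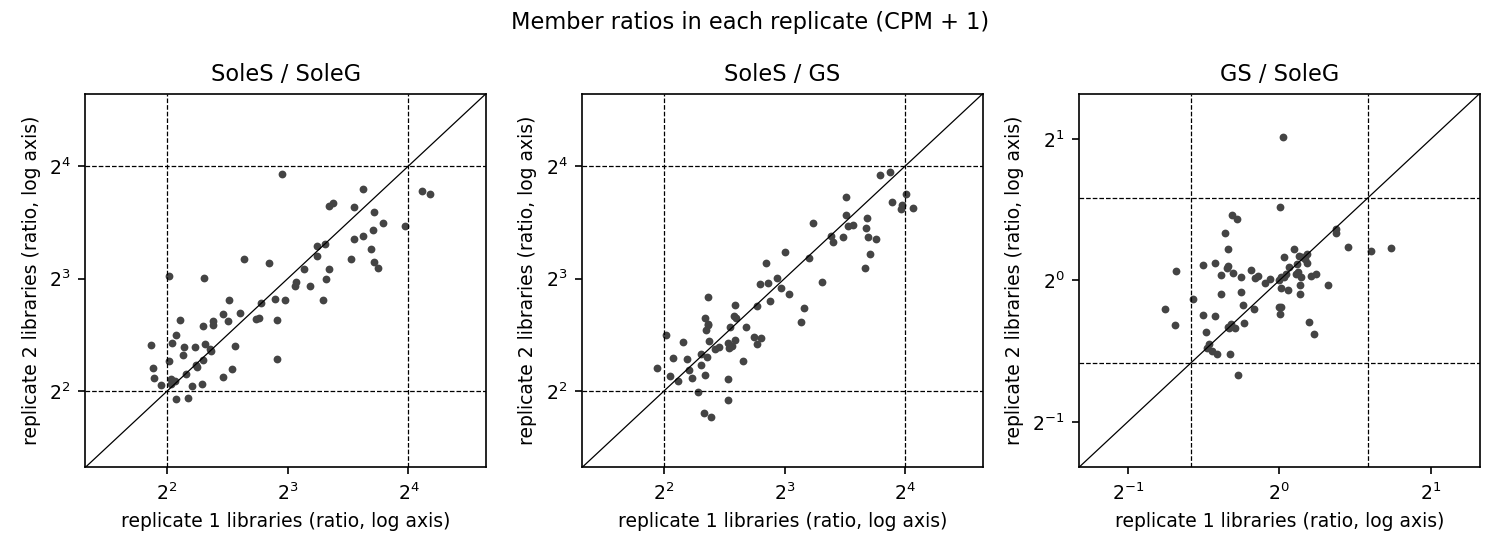
Ratios of CPM + 1 in the replicate 1 libraries (x axis) and the replicate 2 libraries (y axis) for the 73 members, on log axes, with the limits of the rule dashed and equality as a line. The mean of these same libraries chose the members, so their place between the limits is set by the rule, and 52 of the 73 lie inside all limits in both replicates.

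Adding succinic acid to glucose left the members nearly where they were, as the window demands, and what direction remained depended on the scaling. With total counts the GS/SoleG ratio had a median of 0.966 over the members and 0.908 over all genes. The ratio was below 1 in 42 members and above 1 in 31, and it was within 0.9 to 1.1 in 35. With TMM factors, which assume that most genes do not change, the medians were 1.06 and 0.999, and 46 members were above 1 and 27 below. Both scalings placed the members' median above that of all genes by a small amount. A change of scaling shifts members and all genes nearly alike, so the second scaling adds no support to the first. The window also limited this ratio, and removed 25 genes on its low side and 8 on its high side that met every other condition. Nothing is therefore read from the difference, which was not tested.

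Few members were called between GS and SoleG. In edgeR with TMM factors 12 members (16.4%) were called higher in GS and 6 (8.22%) lower, where 20% and 17.6% of all genes were called. With total counts the split turned to 3 higher and 15 lower. Over all genes, calls in either direction numbered 1983 with TMM factors and 2408 with total counts. Their split by direction was not worked out for total counts, so the members' split has no share beside it. Without GS replicate 2 the members' median log2 fold change went from 0.09 to -0.0037. In total-count CPM both GS libraries lay above both SoleG libraries in 11 members (15.1%) and below in 21 (28.8%), against 21.3% and 52.2% of all genes, and they overlapped in 41. The rule capped this contrast, so nothing is read from these shares.

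**Figure D4:**
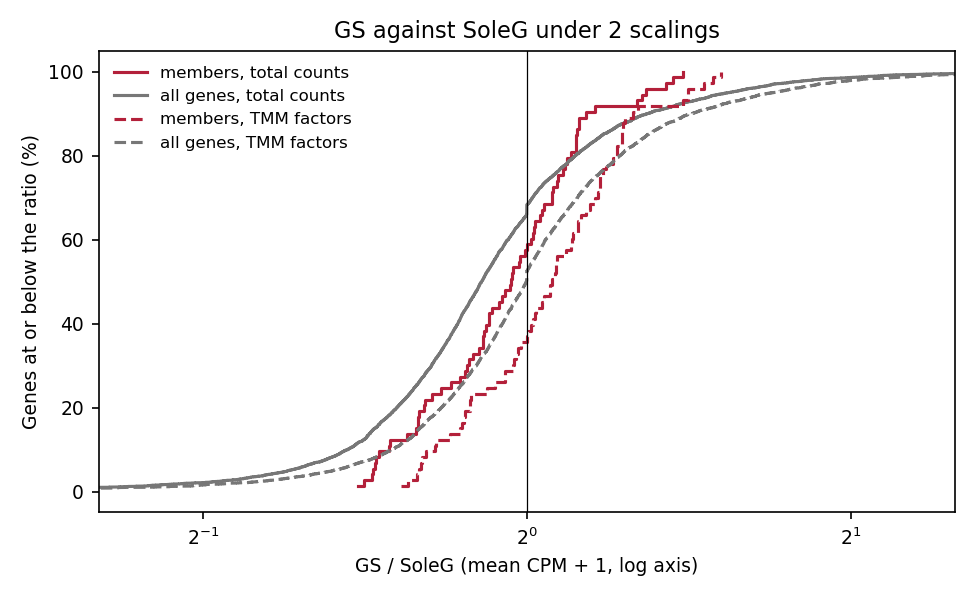
Percent of genes (y axis) at or below each GS/SoleG ratio of mean CPM + 1 (x axis, log) for the 73 members (red) and all 5464 genes (grey), with total counts (solid) and TMM factors (dashed). The members' median is 0.966 with total counts and 1.06 with TMM factors, and the median of all genes 0.908 and 0.999.

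The members named at the ends of the GS/SoleG range were scarce with glucose, but abundant members lay close to the lower end. PK2204, of 1146 bases, had 4.06 and 2.11 CPM in SoleG, 4.15 and 5.26 in GS, against 24.0 and 23.9 in SoleS. PK3164, of 2193 bases, had 5.11 and 8.42 CPM in SoleG, 9.19 and 10.05 in GS, against 79.0 and 82.3 in SoleS. Both GS libraries were above both SoleG libraries in each, by less than the SoleG libraries differed from each other. The GS/SoleG ratios were 1.40 and 1.37, and the edgeR log2 fold changes 0.75 ± 0.34 and 0.65 ± 0.23 (SE). With 1 library left out in turn these ran from 0.37 to 1.27 for PK2204 and from 0.31 to 1.07 for PK3164. PK2204 reached its 1.27 without SoleG replicate 1.

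At the lower end, PK0956, of 1560 bases, had 12.8 and 8.57 CPM in SoleG, 7.56 and 6.70 in GS, against 58.3 and 58.4 in SoleS. PK3230, of 780 bases, had 17.4 and 11.7 CPM in SoleG, 9.93 and 10.05 in GS, against 114 and 114 in SoleS. Their GS libraries were below both SoleG libraries, again by less than the SoleG libraries differed, with ratios of 0.697 and 0.706. The edgeR log2 fold changes were -0.43 ± 0.22 and -0.40 ± 0.19 (SE), and with 1 library left out they ran from -0.67 to -0.14 and from -0.64 to -0.11. Abundant members of 963 and 1458 bases were also lower in GS, with ratios of 0.719 and 0.722. The first had 680 and 625 CPM in SoleG, against 489 and 448 in GS. The second had 404 and 420 CPM in SoleG, against 297 and 297 in GS. Their edgeR log2 fold changes were -0.33 ± 0.08 and -0.33 ± 0.07 (SE). An abundant member of 1731 bases was higher in GS with little spread. It had 427 and 442 CPM in SoleG, 555 and 557 in GS, against 2848 and 2760 in SoleS. Its groups did not overlap in any pair of media.

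Coding length was not part of the rule. The members' median length was 1146 bases with quartiles of 690 and 1566, against 1215 with quartiles of 711 and 1866 for all genes. Only 6 members (8.22%) were longer than 2000 bases, where 21.9% of all genes were, while 13 (17.8%) were shorter than 600 bases, where 19.7% of all genes were. Genes with the same flat profile but smaller rises of 2- to 4-fold, 259 in number, had a median of 1161 bases and 13.5% above 2000. The 23 genes with rises of at least 16-fold had a median of 1188 bases and 17.4% above 2000. These shares are descriptions and were not tested.

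The same 23 genes, with the same GS/SoleG window and level limit, show where the members differ in amount. They held 5.39% ± 0.10 of the SoleS counts (SD, n = 2), close to the 5.57% ± 0.14 of the 73 members, but only 0.0838% ± 0.0006 in SoleG against 0.877% ± 0.014. Their median rank in SoleG was percentile 22.3 against 36.6 for the members, and in SoleS percentile 98.5 against 86.8. Both sets were chosen on these values. The median level in SoleG was 15.9 FPKM in the 23 genes and 28.7 FPKM in the members.

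Several members had neighbouring gene numbers. The files number genes from 1 to 5464, and how the numbers relate to the genome is not given in the sources used here. Over 5463 pairs of consecutive numbers the log2 SoleS/SoleG ratios had a Pearson correlation of 0.14, and of -0.01 for numbers 100 apart (across genes, which are not independent). Of the members, 10 were next to another member, and 21 (28.8%) were next to some gene raised at least 4-fold in SoleS over both other media, a state of 170 genes with a SoleS value of at least 20. Among all 5464 genes, 333 (6.09%) had such a neighbour. The share of all genes next to a member was not worked out, so nothing is read from the 10. The 134 adjacent genes that are not members had a median log2 SoleS/SoleG ratio of 0.22, against -0.14 for all genes. Counting of reads shared by overlapping genes is not described, and the part of shared reads in these figures was not tested.

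Linking members no more than 3 numbers apart gave 6 runs with 15 members. No matching count was made for other sets of genes, so nothing is read from the number of runs. The longest run had 4 members within 7 numbers, of 1110, 1734, 1470 and 1011 bases. The first had 15.8 and 21.1 CPM in SoleG, 15.7 and 18.3 in GS, against 262 and 242 in SoleS. The last had 380 and 331 CPM in SoleG, 319 and 336 in GS, against 1892 and 1779 in SoleS. Another 3 genes that are not members, of 240, 2976 and 630 bases, lay between the first 3 of these members, while the last 2 members had consecutive numbers. The gene of 240 bases had no count in any library, and the other 2 had SoleS/SoleG ratios of 1.09 and 1.09.

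A second run had 3 members within 6 numbers, of 1317, 1284 and 1557 bases. Their SoleS/SoleG ratios were 9.62, 5.13 and 11.0. Between the first and second members stood a gene of 204 bases that is no member, with 32.9 and 33.5 CPM in SoleG, 8.30 and 13.1 in GS, against 21884 and 23913 in SoleS. Its CPM in each SoleS library exceeded that of both adjacent members by over 10-fold, and reads shared with it could reach their counts. Whether any were shared was not tested. The other 2 genes of the run, of 852 and 2547 bases, had ratios of 0.467 and 1.36.

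**Figure D5:**
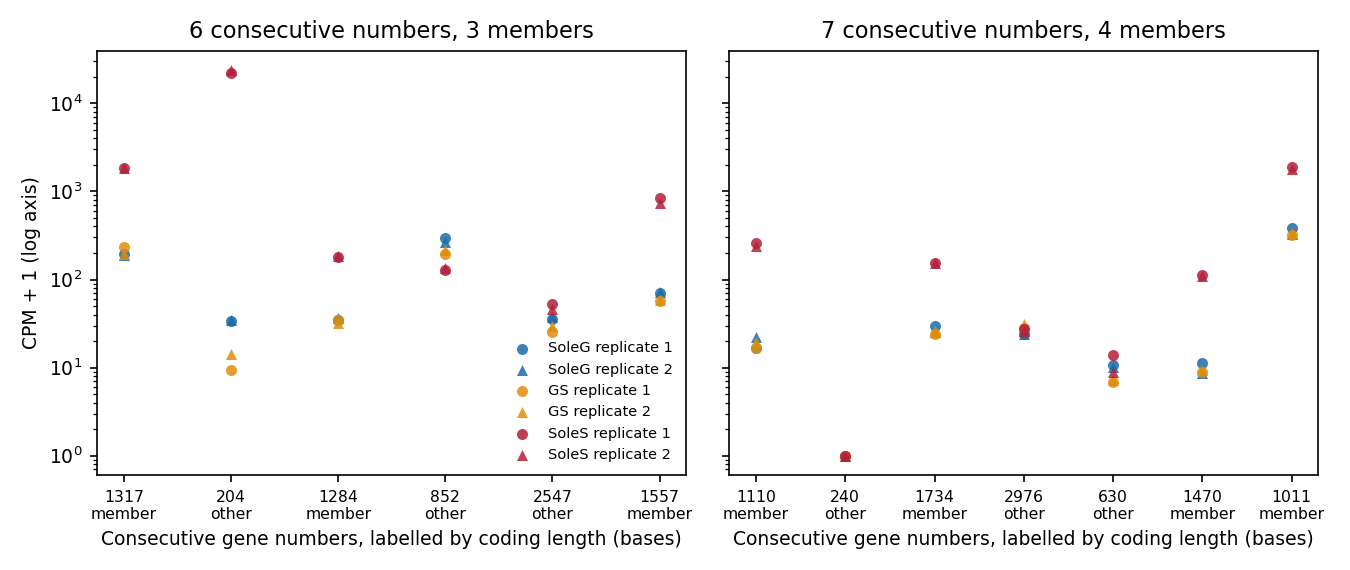
CPM + 1 (y axis, log) in each of the 6 libraries for the genes at consecutive numbers in the runs with 3 and 4 members, labelled by coding length (x axis). Members are raised in SoleS (red), as the rule requires, with other genes between some of them, and the gene of 204 bases stands at 21884 and 23913 CPM in SoleS.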

How the data were processed

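RNA sequencing of 6 libraries was deposited as 1 table each, with 5464 genes, coding lengths and 2 measures. Counts, as deposited, are raw whole numbers per gene. FPKM as deposited are these counts divided by coding length and library total, except that GS replicate 2 (own total 6269038) was divided by 6744749, which is the total of the other GS library. FPKM given here were therefore recomputed. Bowtie2 2.2.5 is listed in the submitters' processing notes; for the counter, its use of strand and of shared reads, the annotation and the build, the entry is: not given in the sources used here.

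The members and lists were chosen with earlier results of these data known. edgeR 4.0.16 in R 4.3.3 fitted 1 quasi-likelihood model with 3 groups, TMM factors and filterByExpr (5280 genes, Benjamini-Hochberg adjusted p below 0.05). The code was first run on counts simulated with the spread of these same libraries. That run cannot show the error rate between separate cultures. With 2 libraries a group, the smallest p of an exact permutation test is 0.333, so none was used. IDs named are the 2 members highest per length in SoleS, and the 2 with the highest and 2 with the lowest GS/SoleG ratio whose GS and SoleG libraries did not overlap. Alternatives were RLE, upper-quartile and total-count scaling, DESeq2 1.42.0, other filters, fits to 2 groups, the replicate block, each library left out and, for the choice of members, other scalings, added values of 0.1 or 5 and deposited FPKM.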

Additional observations from a re-analysis of the deposited data

How the results depend on the processing

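The rule gave 67 to 87 genes with 1 library left out, and 65 and 60 of the 73 members recurred without replicate 1 or replicate 2 in any medium, a setting added after the data were seen. Upper-quartile scaling gave 120 genes, 69 of them members; TMM and RLE gave 95 and 101. With 5 added, 54 members recurred. All 73 members were called higher in SoleS in both comparisons under every alternative that kept 2 libraries a medium. The main fit called 38.2% and 40.0% of all genes tested higher. The rule used these contrasts in the same libraries, so nothing is read from the members' calls. The members' median log2 fold change against SoleG, 2.85, was 2.97 with upper-quartile factors, 2.70 with total counts and 2.84 to 2.97 with a library left out. Against GS it was 2.69, then 2.83 with upper-quartile factors and 2.69 to 2.82 with a library left out. For GS against SoleG it was 0.09, but -0.054 with total counts and -0.0037 without GS replicate 2 (up to 0.12 with another left out), and the cause was not tested. Members called there, 12 higher and 6 lower, were 3 and 15 with total counts, and 6 to 14 and 1 to 8 with a library left out. TMM scaling made the shares of counts 0.819% in SoleG, 0.857% in GS and 5.78% in SoleS; single libraries gave 0.867% to 0.887%, 0.824% to 0.836% and 5.47% to 5.67%. Replicate differences were nearly uncorrelated between media (-0.04, -0.10 and 0.05). The labels do not say whether replicate numbers mark pairs, and these correlations cannot settle it. With the replicate block 73, 73 and 13 members were called higher, and 6 lower in GS. Of all genes, 4142, 4162 and 1910 were called in either direction with the block. Depth limits the member under 10 counts with glucose.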
